A study of Mus musculus with 18 samples.

Results

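The zona pellucida and egg surface genes are the genes for the 3 proteins of the mouse egg coat (Zp1, Zp2 and Zp3), for ovastacin (Astl), for the sperm receptor JUNO (Izumo1r, earlier Folr4), for the tetraspanin CD9 (Cd9) and for oocyte-secreted protein 1 (Oosp1). They form the coat and the sperm-facing surface of the egg, were chosen by symbol, and all 7 were found among the 55471 Ensembl gene IDs of the oocyte files. Messenger RNA was measured in MII oocytes, which are mature eggs that wait in the second meiotic metaphase to be fertilised, with 3 libraries labelled Isca2 -/- (KO) and 3 labelled wild type (WT), each with between 17792157 and 30240350 expected counts. Isca2 encodes a mitochondrial iron-sulfur cluster assembly protein. The labels give no strain, age or treatment for the oocyte donors, no description of the Isca2 allele, no number of oocytes per library and no statement that replicates came from separate animals, so that p-values measure the spread between these libraries, which may be technical. The collection protocol in the labels describes embryos of superovulated Isca2+/- females mated to Isca2+/- males, and the library protocol describes blastocysts. How Isca2 -/- oocytes were obtained is not given in the sources used here.

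The zona pellucida is the glycoprotein coat that a growing oocyte secretes and that sperm must bind and cross. ZP2 and ZP3 form its filaments and ZP1 cross-links them, and in the mouse sperm bind near the amino terminus of ZP2. After fertilisation the egg releases ovastacin, a metalloprotease, from its cortical granules, and the enzyme cleaves ZP2 so that no further sperm bind. JUNO, a GPI-anchored protein of the egg membrane, binds IZUMO1 on the sperm, and CD9 in the same membrane is needed for the fusion that follows. OOSP1 is a secreted oocyte protein with a domain related to those of zona proteins. The zona genes are transcribed mostly while the oocyte grows, and in the mouse the E-box-binding factor FIGLA is needed for the expression of Zp1, Zp2 and Zp3.

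The labels were checked first. Isca2 had 53, 56 and 120 expected counts in the KO libraries and 14, 11 and 152 in the WT libraries, so it was not lower in the libraries labelled KO, and every genotype direction here is between libraries as labelled. Without WT replicate 3 its log2 fold change was 2.48 (adjusted p = 0.0969, edgeR), and DESeq2 called it higher in the libraries labelled KO (adjusted p = 0.00822). All 17 oocyte markers, among them Gdf9, Bmp15 and Mos, were present in every library, with summed levels of 56129 to 59033 TPM (transcript share scaled to length, with the same total in every library) in KO and 50419 to 61584 TPM in WT. WT replicate 3 stood apart. Its 15 macrophage and leukocyte markers summed to 1395 TPM, against 149.7 to 157 TPM in KO and 136 and 163 TPM in the other WT libraries, where 1 gene, Ms4a1, gave 124 to 150 TPM. Without Ms4a1 the sum was 1259 TPM in WT replicate 3 and 9.63 to 13.4 TPM in the other 5 libraries. In that library 11 of the 15 were over 2-fold above the mean of WT replicates 1 and 2. In CPM (counts relative to the scaled library total), Adgre1, Lyz2 and Ptprc had 289, 125 and 112 there and at most 0.46 in the other 5 libraries. C1qa, C1qc and Cd79a were at 0 in the other 5 libraries but also low in WT replicate 3, at 0.31, 1.52 and 0.07 CPM. Cd3e was at 0 in WT replicate 3. The 17 granulosa and cumulus markers summed to 78.7 to 180 TPM in KO and 50.4 to 71.3 TPM in WT.

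Oosp1 was by far the most abundant of the 7 transcripts, and Zp3 was the most abundant zona transcript in every library. Oosp1 (ENSMUSG00000041857, chromosome 19, 11667460 to 11691051, GRCm38.p6 here and below) had 6613, 7258 and 6094 TPM in KO replicates 1, 2 and 3, against 6501, 7003 and 5119 TPM in WT replicates 1, 2 and 3. The groups overlapped, and the lowest value was that of WT replicate 3. In bulk libraries such as these, fewer cells of a type and less RNA per cell cannot be told apart. By TPM it ranked between 17 and 20 among all genes of each library.

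Zp3 (ENSMUSG00000004948, chromosome 5, 135980105 to 135988624) had 307, 296 and 305 TPM in KO, against 428, 302 and 1625 TPM in WT. WT replicate 2 thus lay among the KO libraries, and WT replicate 3 was 5.39 times as high as WT replicate 2. Zp1 (ENSMUSG00000024734, chromosome 19, 10914296 to 10920601) had 185, 128 and 149 TPM in KO, against 244, 84.0 and 496 TPM in WT. Every KO library lay inside the range of the WT libraries. Zp2 (ENSMUSG00000030911, chromosome 7, 120126762 to 120145291) had 126, 95.7 and 78.5 TPM in KO, against 398, 69.8 and 1498 TPM in WT. The 3 KO libraries again lay inside the WT range, just above its lowest library, and the WT libraries differed 21.5-fold among themselves.

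Astl (ENSMUSG00000050468, chromosome 2, 127338639 to 127357655) had 88.3, 87.2 and 74.6 TPM in KO, against 88.7, 46.3 and 123.5 TPM in WT, with all KO libraries inside the WT range. Izumo1r (ENSMUSG00000031933, chromosome 9, 14885814 to 14903951) had 67.2, 69.0 and 64.2 TPM in KO, against 109, 69.1 and 165 TPM in WT. It was the gene of the 7 whose groups did not overlap, although WT replicate 2, at 69.09 TPM, and KO replicate 2, at 69.03 TPM, were all but equal. Cd9 (ENSMUSG00000030342, chromosome 6, 125460266 to 125494760) had 52.5, 42.3 and 60.7 TPM in KO, against 84.96, 34.8 and 911 TPM in WT. Cd9 is made by many cell types, macrophages among them, and its value in WT replicate 3 was 15.2 times the mean of the other WT libraries.

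**Figure D1:**
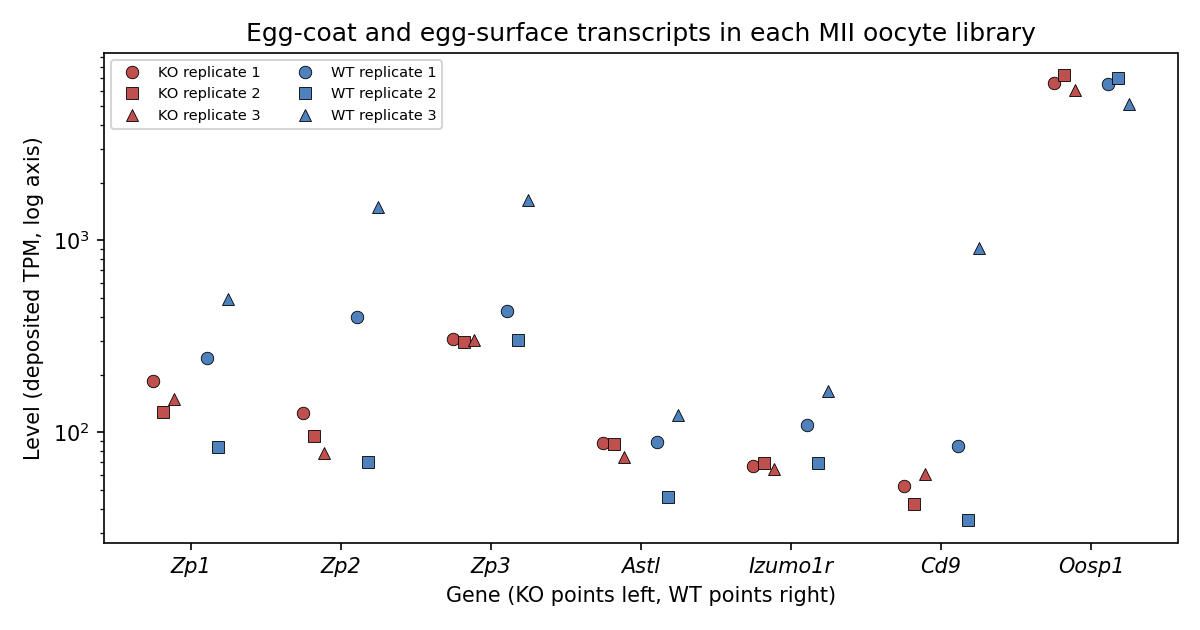
Level of each transcript in deposited TPM on a log axis, 1 point per library, KO in red on the left and WT in blue on the right of each gene, with the marker giving the replicate number. WT replicate 3 (blue triangle) is the highest point for 6 genes and the lowest for Oosp1, and the KO points lie close together for every gene.

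The order of the levels changed between libraries for the genes in the middle. In the KO libraries the mean levels ran from Oosp1 (6655 ± 583 TPM, SD, n = 3) through Zp3 (303 ± 5.94), Zp1 (154 ± 29.1), Zp2 (100.01 ± 24.02), Astl (83.3 ± 7.56) and Izumo1r (66.8 ± 2.47) to Cd9 (51.8 ± 9.19). In that order Zp2 and Astl overlapped between KO libraries and no other neighbours did. In WT the spread was too wide to order them: Zp3 had 785 ± 730 TPM, Zp2 656 ± 748 TPM, Cd9 344 ± 492 TPM and Zp1 275 ± 208 TPM (SD, n = 3).

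The proportions of the zona transcripts also differed between libraries. The ratio of Zp2 to Zp1 in TPM was 0.679, 0.748 and 0.527 in KO replicates 1, 2 and 3, against 1.63, 0.831 and 3.02 in WT replicates 1, 2 and 3. All KO libraries lay below all WT libraries for this ratio, narrowly, with KO replicate 2 at 0.748 and WT replicate 2 at 0.831. It was looked at with the levels known and was not tested. The share of other gene pairs whose ratio separates the groups was not computed. The ratios of Cd9 to Izumo1r and of Oosp1 to Zp3, also looked at, overlapped. The ratio of Zp3 to Zp1 was 1.66, 2.32 and 2.05 in KO, against 1.75, 3.59 and 3.28 in WT, with the groups overlapping. The ratio of Zp2 to Zp3 was 0.41, 0.323 and 0.257 in KO, against 0.931, 0.231 and 0.922 in WT. WT replicates 1 and 3 shared nearly the same Zp2 to Zp3 ratio although their levels differed, and WT replicate 2 lay just below the KO libraries.

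**Figure D2:**
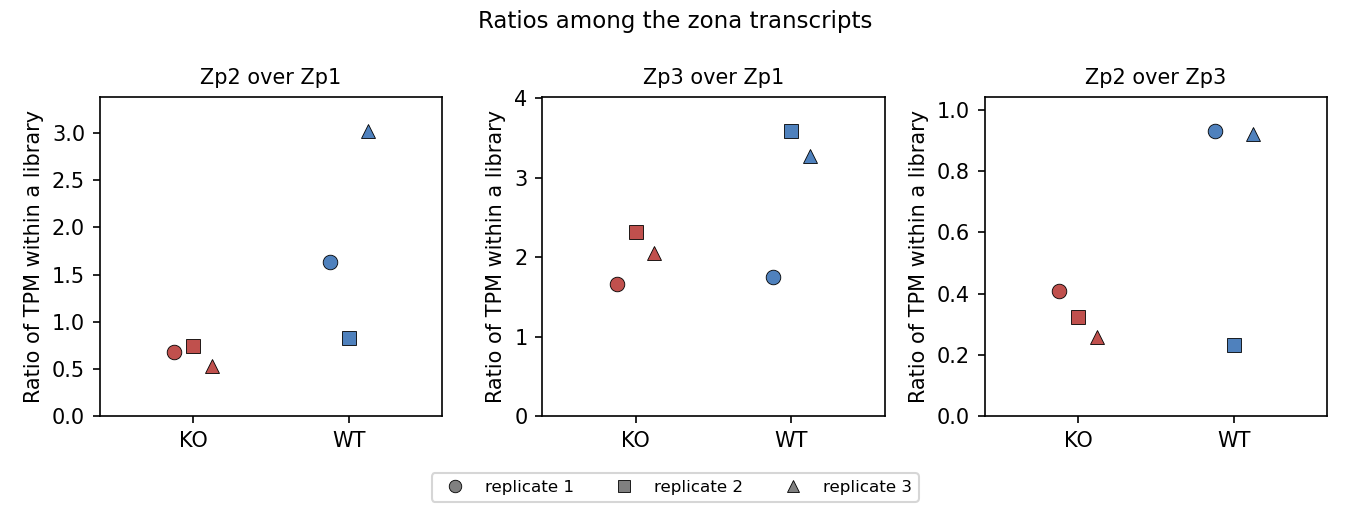
Ratios of TPM between the zona transcripts within a library, 1 point per library, KO in red on the left and WT in blue on the right, with the marker giving the replicate number. The Zp2 to Zp1 ratio lies between 0.527 and 0.748 in KO and between 0.831 and 3.02 in WT, while the other ratios overlap between the groups. The share of other gene pairs that separate in this way was not computed.

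Sequence upstream of the RefSeq start sites is shown because FIGLA and its partners bind E-boxes, and the letters CAGGTG are an E-box form. Read on the opposite strand they are CACCTG. RefSeq windows of GRCm38.p6 matched 5 of the 7 genes, with 2 start sites for Astl, and Zp1 and Zp2 had no entry. In the 250 bases before the start, CAGGTG on either strand was found in 5 of the 6 windows, that is, at 1 or more starts of each of the 5 genes. Of 32851 RefSeq promoters of the same length 17.2% held it. The looser E-box CANNTG, which includes CAGGTG, was in 66.2% of them. In these genes the copy nearest the start began 55 bases before it in Zp3, 57 in Izumo1r, 59 in Astl and Oosp1 and 73 in Cd9. A copy beginning 55 to 73 bases before the start was found in 1.63% of all promoters, a range chosen from these genes themselves. Among 13 promoters of the oocyte markers, 4 held CAGGTG anywhere in the 250 bases. A match describes letters and not a bound site. The 30 bases around that copy read as follows on the gene's strand, with the 6 letters in capitals.
Zp3 (chr5:135980038-135980067, plus strand): gcagagggaattCAGGTGggagggtgggcc
Izumo1r (chr9:14903807-14903836, minus strand): ggcggctctccaCACCTGtagctcatagaa
Astl (chr2:127341565-127341594, plus strand, downstream start): gttgggaggctgCAGGTGtgggctggagaa
Oosp1 (chr19:11691093-11691122, minus strand): cttagttactccCACCTGcaggtcatctgc
Cd9 (chr6:125494816-125494845, minus strand): gcatgggcggggCAGGTGggccggggggcg
Between the highest and lowest of the 6 libraries in TPM, Oosp1 differed 1.418-fold, Izumo1r 2.58-fold, Astl 2.67-fold, Zp3 5.49-fold and Cd9 26.2-fold. A relation of the letters to these levels was not tested. The whole 250 bases before the Zp3 start are given with CAGGTG in capitals. They hold 3 matches to CANNTG, of which only the 1 that reads CAGGTG is marked. Another, farther from the start and left in lower case, reads CACGTG. Which of the 3 matches FIGLA binds, if any, was not tested. Zp1 and Zp2 had no entry, so an element shared by the zona genes could not be looked for.
Zp3 (chr5:135979855-135980104, plus strand): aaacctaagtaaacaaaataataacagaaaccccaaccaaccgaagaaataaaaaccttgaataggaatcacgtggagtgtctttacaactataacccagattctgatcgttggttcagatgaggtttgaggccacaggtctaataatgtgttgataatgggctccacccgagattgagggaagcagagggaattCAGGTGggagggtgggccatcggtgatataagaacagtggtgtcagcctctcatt

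No gene of the 7 passed the test between genotypes. After adjustment over all 13680 genes tested with edgeR's quasi-likelihood test, 0 of 7 were called at 0.05, where 0.0146% of all genes were called (0 higher and 2 lower). DESeq2, which called 0.738% of all genes, and limma-voom, which called 0.0146%, also called 0 of the 7. At an unadjusted p under 0.05, 3 of the 7 were lower in KO (Zp2, Izumo1r and Cd9) and 0 higher, while 6.19% of all genes passed that limit in either direction and 3.3% on the lower side. Of the 17 oocyte markers 7 passed it in either direction, so such a share was not particular to the 7 genes. Taking KO over WT, the median log2 difference was -0.70 over the 7 genes and -0.04 over all genes tested. Without WT replicate 3, 0 of the 7 were called, where 0.651% of all genes were, and these medians were -0.14 and 0.01. The values below are in CPM (counts relative to the scaled library total, not corrected for length).

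Zp2 had the widest interval among the zona genes. It averaged 159 ± 33.7 CPM in KO and 950 ± 1056 CPM in WT (SD, n = 3 each). KO stood at -2.58 relative to WT on the log2 scale (SE 0.89, 95% interval -4.67 to -0.48, adjusted p = 0.766, edgeR). With WT replicate 3 left out the estimate became -1.16 (SE 0.50, adjusted p = 0.413), resting on WT replicates 1 and 2 at 602 and 111 CPM, one above and one below every KO library. Zp3 averaged 266 ± 13.7 CPM in KO and 622 ± 546 CPM in WT, a log2 fold change of -1.23 (SE 0.54, adjusted p = 0.766, edgeR). It was -0.22 (SE 0.13) without WT replicate 3, with an interval of -0.51 to 0.08. Zp1 averaged 215 ± 38.7 CPM in KO and 349 ± 247 CPM in WT, a log2 fold change of -0.70 (SE 0.51, adjusted p = 0.803, edgeR), and -0.03 (SE 0.33) without WT replicate 3.

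Of the egg membrane genes, Izumo1r had the tighter values in KO. It had 46.1, 47.1 and 45.5 CPM in KO, against 67.0, 50.1 and 100.2 CPM in WT. Every KO library lay below every WT library, as for 5.96% of all genes tested and 4 of the 17 oocyte markers. On the log2 scale the difference was -0.65 (SE 0.24, 95% interval -1.22 to -0.08, adjusted p = 0.766, edgeR), and -0.34 (SE 0.15, adjusted p = 0.436) without WT replicate 3. The summed granulosa and cumulus markers did not overlap between the groups either and were higher in KO. The nearest libraries were KO replicate 1 at 78.7 TPM and WT replicate 1 at 71.3 TPM. Cyp19a1 alone gave 35.7 and 39.0 TPM of these. Without Cyp19a1 the sums were 43.0, 120 and 152 TPM in KO, against 32.2, 13.2 and 36.1 TPM in WT. How often sums of other gene lists separate in this way was not looked at. The part of those other cells in the Izumo1r difference was not tested. Cd9 averaged 41.7 ± 8.92 CPM in KO and 243 ± 342 CPM in WT, a log2 fold change of -2.55 (SE 1.06, adjusted p = 0.766, edgeR). It was -0.14 (SE 0.31, interval -0.83 to 0.55) without WT replicate 3, the library with the macrophage markers, whose part in the Cd9 value was not tested.

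The secreted enzyme and OOSP1 stood on the other side of zero. Astl averaged 135 ± 6.17 CPM in KO and 129 ± 51.2 CPM in WT, a log2 fold change of 0.06 (SE 0.28, 95% interval -0.60 to 0.72, adjusted p = 0.979, edgeR). Its sign was negative with library totals in place of scaling factors (-0.03). With WT replicate 3 left out it came to 0.36 (SE 0.21, adjusted p = 0.575), since WT replicate 2 had 75.4 CPM and every KO library at least 128 CPM. Without WT replicate 2 it was -0.21. Oosp1 averaged 3492 ± 212 CPM in KO and 3020 ± 649 CPM in WT, a log2 fold change of 0.21 (SE 0.18, 95% interval -0.21 to 0.63, adjusted p = 0.826, edgeR). Without WT replicate 3 it was 0.05 with an interval of -0.17 to 0.27.

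**Figure D3:**
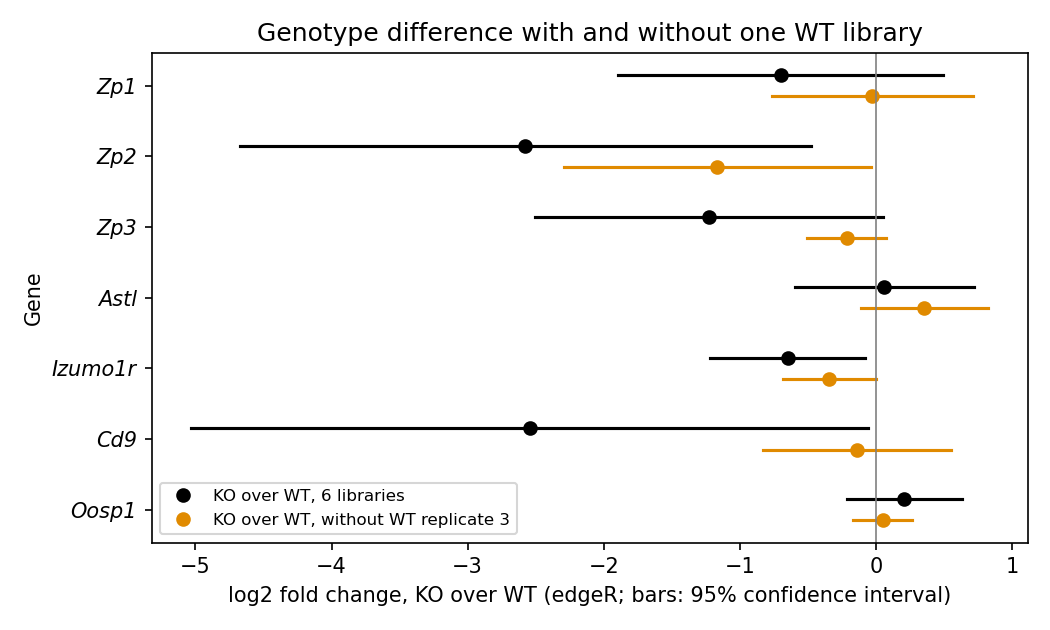
KO over WT as a log2 fold change from edgeR (points) with its 95% confidence interval (bars), for all 6 libraries in black and without WT replicate 3 in orange. Without that library the estimates of Zp1, Zp3, Cd9 and Oosp1 lie within 0.22 of zero, while Zp2 stays at -1.16 with a wide interval.

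The spread lay almost wholly within WT. Between the highest and lowest KO library the 7 genes differed by 1.03-fold (Izumo1r) to 1.54-fold (Cd9) in CPM, with a median of 1.11, and the median over all genes tested was 1.39. Between the WT libraries they differed by 1.55-fold (Oosp1) to 22.8-fold (Cd9), with a median of 4.73 against 1.56 over all genes. The medians over all genes were taken with 0.5 CPM added to each value and include less abundant genes. No set matched for abundance was taken. The WT libraries stood in the same order, replicate 3 above 1 above 2, for 6 of the 7 genes, an order that 27.2% of all genes had. In the same 6 genes WT replicate 3 was the highest of all libraries, as in 31.6% of all genes, and for Zp1, Zp2, Astl and Cd9 every KO library lay within the WT range, as for 29.9% of all genes. Oosp1 had the reverse of it. WT replicate 3 was over 2-fold above the mean of WT replicates 1 and 2 for Zp1 (2.79-fold), Zp3 (4.05-fold), Zp2 (5.98-fold) and Cd9 (13.9-fold), 4 of 7, where 17.4% of all genes were. WT replicate 1 was in turn over 2-fold above WT replicate 2 for Zp1 (2.71-fold), Zp2 (5.40-fold) and Cd9 (2.28-fold), 3 of 7, where 6.54% of all genes were. The macrophage and leukocyte markers without Ms4a1 summed to 12.9 and 11.7 TPM in WT replicates 1 and 2. The granulosa and cumulus markers without Cyp19a1 summed to 32.2 TPM in WT replicate 1 and 13.2 TPM in WT replicate 2, and 5 of the 12 tested were over 2-fold higher in WT replicate 1, with a median ratio of 1.77. Their part in the difference between these libraries was not tested.

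The oocyte markers centred near all genes in WT replicate 3. The median ratio of WT replicate 3 to the other WT libraries was 0.984 over the 17 oocyte markers, 1.03 over all genes tested and 2.79 over the 7 genes. Of the 17 oocyte markers 3 were over 2-fold higher there, where 17.4% of all genes were. These were Nlrp5, Khdc3 and Tle6, which were named after their values were seen. Khdc3 had 20.4, 13.3 and 16.96 CPM in KO, against 34.9, 20.4 and 160 CPM in WT. Ooep, which encodes an RNA-binding family protein of the egg, had 293, 208 and 142 CPM in KO, against 420, 339 and 482 CPM in WT (log2 fold change -0.95, SE 0.27, adjusted p = 0.766, edgeR). Every KO library lay below every WT library for Ooep, as for 5.96% of all genes tested and 4 of the 17 oocyte markers. DESeq2 called Ooep lower in KO in the 6 libraries (adjusted p = 0.0314), the only call among its 18 alternatives. The stem cell factor receptor gene Kit had 172, 139 and 143 CPM in KO, against 201, 197 and 194 CPM in WT (log2 fold change -0.38, adjusted p = 0.766, edgeR).

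**Figure D4:**
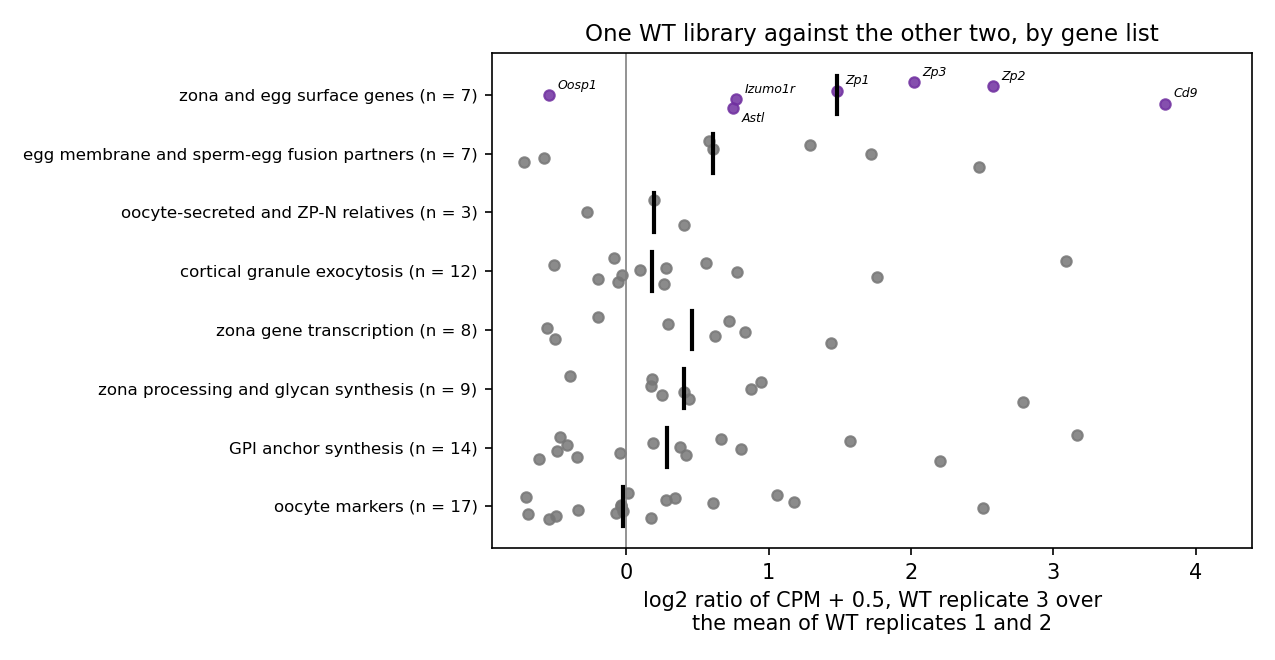
The log2 ratio of WT replicate 3 to the mean of WT replicates 1 and 2 (CPM plus 0.5) for each tested gene, by list, with the 7 zona and egg surface genes in purple and list medians as black bars. The zona genes and Cd9 lie above 1 on this log2 axis and Oosp1 below 0, while the oocyte markers centre near 0.

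The genes whose pattern over the 6 libraries was most like the mean of Zp1, Zp2 and Zp3 were Rab32, Yipf1, Tomm6, Dppa5a and Ergic3. Their Pearson correlations on log2(CPM + 1) lay between 0.991 and 0.998. The pool was the 5440 tested genes with an average abundance in edgeR of at least 4 in log2 CPM, and 5.28% of those genes reached 0.9. The points share their libraries, and WT replicate 3 weighs on all of them. It also weighs on the abundance limit, which is not a mean of log2 values. Yipf1, Tomm6 and Ergic3 had 83.1, 51.7 and 67.5 CPM in WT replicate 3 and at most 13.4 CPM in any KO library. These 3 genes reached the abundance limit only through WT replicate 3. All 5 were picked for the zona pattern, so their height in that library is not a separate result. Rab32, a small GTPase gene, had 73.5, 69.0 and 70.9 CPM in KO, against 89.4, 61.7 and 151 CPM in WT. Yipf1, which encodes a Golgi membrane protein, had 12.9, 7.39 and 10.4 CPM in KO, against 26.1, 5.79 and 83.1 CPM in WT. Tomm6 belongs to the outer mitochondrial membrane translocase, Ergic3 to the membranes between endoplasmic reticulum and Golgi, and Dppa5a is a pluripotency and germ cell gene, with 75.2, 50.3 and 49.99 CPM in KO against 99.0, 42.8 and 285 CPM in WT. In WT replicate 3 Tomm6 was 3.24-fold and Ergic3 4.41-fold above the mean of the other WT libraries. The closest pattern to Astl was that of Zfp207 (r = 0.989), to Izumo1r that of Uchl1 (r = 0.995), to Cd9 that of Sbno1 (r = 0.999) and to Oosp1 that of Ccdc15 (r = 0.997). EdgeR called none of these 9 genes between genotypes in the 6 libraries.

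Genes that act with the 7 were read from lists, and edgeR called none of them in the 6 libraries. Of the partners in the egg membrane 7 of 9 could be tested, with 0 called and a median log2 fold change of 0.24. Itga9, which encodes integrin alpha 9, had 513, 553 and 557 CPM in KO, against 439, 542 and 328 CPM in WT. Mfge8, a secreted glycoprotein gene, was at or below 2.58 CPM in every library and had no count in WT replicates 1 and 2. DESeq2 called it without WT replicate 3 (adjusted p = 0.00936). Cd81, the other tetraspanin of the egg known for fusion, had 5.74, 11.5 and 12.4 CPM in KO, against 3.42, 2.58 and 19.0 CPM in WT, and was named after its values were seen. Like Cd9 it was highest in WT replicate 3, but WT replicates 1 and 2 lay below every KO library.

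Among the relatives of OOSP1, Plac1 was the gene whose groups did not overlap, with every KO library above every WT library as for 6.48% of all genes tested. Oosp3, a neighbour of Oosp1 on chromosome 19, had 1806, 1866 and 1923 CPM in KO, against 1602, 1842 and 1418 CPM in WT (log2 fold change 0.20, SE 0.13). Plac1, a placental gene of the same family, had 15.6, 11.2 and 10.9 CPM in KO, against 7.84, 5.93 and 7.97 CPM in WT, without overlap (log2 fold change 0.80, SE 0.27, adjusted p = 0.766, edgeR).

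C1galt1 showed the clearest separation between the groups among the genes of zona processing and glycan synthesis. It encodes the galactosyltransferase that builds the core 1 O-glycans carried by zona proteins. It had 12.5, 25.5 and 16.99 CPM in KO, against 5.61, 4.28 and 6.90 CPM in WT, and every KO library lay above every WT library, as for 6.48% of all genes tested. KO lay 1.71 above WT on the log2 scale (SE 0.34, adjusted p = 0.443, edgeR). Leaving out WT replicate 3 gave 1.89 (adjusted p = 0.0482, edgeR) and DESeq2 called it in 6 libraries (adjusted p = 0.000636). Over 18 alternatives its adjusted p ran from 1.09e-05 to 0.999 and passed 0.05 in 3. The summed granulosa and cumulus markers were likewise higher in KO (78.7 to 180 TPM, against 50.4 to 71.3 TPM in WT). Without Cyp19a1 they summed to 43.0 to 152 TPM in KO, against 13.2 to 36.1 TPM in WT. The part of those other cells in the C1galt1 difference was not tested. C1galt1c1, the chaperone gene of that enzyme, had 61.8, 67.5 and 71.8 CPM in KO, against 49.9, 53.1 and 61.3 CPM in WT, also without overlap (log2 fold change 0.29, SE 0.13, adjusted p = 0.766, edgeR). Of the 11 genes in this list 9 were tested, 3 with a positive and 6 with a negative log2 fold change, with a median of -0.19. Tgm2, a transglutaminase gene, had 230 CPM in WT replicate 3 and at most 0.42 CPM in the other 5 libraries. The macrophage marker Adgre1 had a like profile, with 289 CPM there and at most 0.46 CPM in the other 5 libraries. The part of macrophage RNA in the Tgm2 value was not tested. With counts in so few libraries Tgm2 did not pass the count filter and was not tested, and it was named after its values were seen.

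None of the transcription factors of the zona genes passed edgeR's test. Nobox, a homeobox factor of oocyte growth, had 107, 79.4 and 82.4 CPM in KO, against 125, 94.4 and 195 CPM in WT (log2 fold change -0.63, SE 0.27, adjusted p = 0.766, edgeR), its highest value again in WT replicate 3. Foxo3, which holds resting follicles in check, had 165, 169 and 197 CPM in KO, against 212, 235 and 157 CPM in WT (log2 fold change -0.18, SE 0.17). Figla had 1.75, 1.23 and 0.85 CPM in KO, against 0.18, 0.88 and 2.28 CPM in WT, and was named for its role. Of 9 genes in the list 8 were tested, 0 were called, and the median log2 fold change was 0.06.

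Cortical granule and GPI anchor genes gave no edgeR call either. Of 12 tested genes of cortical granule exocytosis 4 had a positive and 8 a negative log2 fold change (median -0.11). Padi6, an arginine deiminase family gene of the egg cytoplasm, had 184, 178 and 131 CPM in KO, against 209.8, 175 and 330 CPM in WT (log2 fold change -0.53, SE 0.25, adjusted p = 0.766, edgeR). Vamp3, a vesicle SNARE gene, stood at 0.21 in log2 (SE 0.14). Of 14 tested GPI anchor genes, whose products attach JUNO to the membrane, 5 had a positive and 9 a negative log2 fold change (median -0.28), with Pigf at 0.32 (SE 0.17) and Pigu at 0.39 (SE 0.21). Of the 17 granulosa and cumulus markers 12 were tested, 10 with a positive and 2 with a negative log2 fold change. The negative ones were Cyp19a1, with 60.3, 58.4 and 52.0 CPM in KO against 63.7, 64.7 and 51.2 CPM in WT, and Ptgs2. Ptgs2 had 0.79, 1.96 and 0.18 CPM in KO, against 0, 1.02 and 27.7 CPM in WT. The 2 markers with the smallest p were Inhbb and Fst. Inhbb, an inhibin subunit gene, had 2.15, 4.87 and 13.0 CPM in KO against 0.04, 0 and 0 CPM in WT. Fst, the follistatin gene, had 7.97, 30.3 and 24.9 CPM in KO against 1.49, 0 and 1.38 CPM in WT. Inhbb was not called by edgeR in the 6 libraries (adjusted p = 0.21) but was called by DESeq2 (adjusted p = 3.1e-07), and without WT replicate 3 by both edgeR (adjusted p = 0.026) and DESeq2 (adjusted p = 4.02e-05). For C1qb, a complement gene of the macrophage list, KO over WT was -1.28 in log2 (SE 0.57), and for Ms4a1 0.12 (SE 0.11). None of the 5 red blood cell markers could be tested, and they summed to at most 2.92 TPM.

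The deposited transcript lengths, which RSEM weights by isoform, gave no sign of a genotype split for any of the 7 genes. For Izumo1r, with 5 annotated isoforms, the weighted length was 1106, 1103 and 1080 bases in KO, against 1053, 1134 and 1099 bases in WT, and the groups overlapped. For Zp2, also with 5, it lay between 2203 and 2214 bases in KO and between 2199 and 2219 bases in WT. Cd9 stayed at 1228 bases in all libraries within 1 base.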

How the data were processed

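Messenger RNA of 6 MII oocyte libraries (3 KO, 3 WT) was analysed, and the sperm and blastocyst samples were not used here. Titles gave the groups and the replicate numbers. Per the file headers, the authors deposited RSEM expected counts, TPM and FPKM per Ensembl gene. The FPKM values deposited by the authors were not used. Per the submitters' processing notes, the tools named, without roles, were STAR 2.6.1c, RSEM 1.3.1, Trim Galore 0.4.5 and DESeq2 1.42.1, and the builds mm10 and GRCm38. No source used here gives a strand setting, and overlapping and antisense genes cannot be separated. A symbol was found for 55144 IDs. Coordinates and promoter sequences came from RefSeq tables of GRCm38.p6.

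Expected counts were rounded. Genotypes were compared in R 4.3.3 with edgeR 4.0.16, by its quasi-likelihood test (filterByExpr, TMM, Benjamini-Hochberg over all genes, threshold 0.05), with genotype as the only term. On simulated counts for 3 KO and 3 WT libraries it called 97 of 100 genes given a log2 change of 2. The simulated spread came from the fit without WT replicate 3, so that outcome does not give the power for these 6 libraries. The SE was the size of the log2 fold change divided by the root of F. DESeq2 1.42.0 and limma 3.58.1 served as alternatives, with other scalings, filters, TPM on a log2 scale, a replicate block, library weights and each library left out. The 7 genes, the gene lists and the tests were chosen with earlier results of these data known. Named genes were the 7, Isca2, the 2 genes of each list with the smallest p, the 5 genes nearest the zona pattern and 1 for each of the other 4 genes.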

Additional observations from a re-analysis of the deposited data

How the results depend on the processing

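Over 126 alternative values of the 7 genes (18 settings each) 0 passed 0.05. The sign differed from the reported one in 3 of them: Zp1 was 0.13 with limma-voom on 5 libraries (adjusted p = 0.918), and Astl was -0.0264 with library totals only (adjusted p = 0.988) and -0.21 without WT replicate 2. With each library left out in turn, the log2 fold changes ran from -1.10 to -0.03 for Zp1, -3.09 to -1.16 for Zp2, -1.58 to -0.22 for Zp3, -0.21 to 0.36 for Astl, -0.85 to -0.34 for Izumo1r, -3.06 to -0.14 for Cd9 and 0.05 to 0.36 for Oosp1. Zfp207 turned to -0.0455 with library totals, which moved the median of all genes to -0.10, to -0.0439 and -0.0442 on the log2(TPM + 1) and log2(TPM + 0.1) scales and to -0.0713 without WT replicate 2. The count of all genes called was 2, and 101 with DESeq2, 12 and 13 with limma on log2(TPM + 1) and log2(TPM + 0.1), 8 with library weights, 502 with DESeq2 and 11 with limma-voom on 5 libraries, and between 1 and 92 with 1 library left out, lowest without KO replicate 1 and highest without WT replicate 3. The cause was not tested. Replicate numbers did not pair the libraries: the correlations of same-numbered libraries' deviations were 0.063, -0.111 and 0.008, and the replicate block left 2 genes called, with Zp2 at -1.72 and Cd9 at -1.26. Depth was no limit for these 7 genes, each with at least 575 expected counts per library.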
